A study of Mus musculus with 2 samples.

Results

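*Nrcam* and 7 further neuronal adhesion genes of the immunoglobulin superfamily, *L1cam*, *Chl1*, *Nfasc*, *Cntn1*, *Cntn2*, *Alcam* and *Dscam*, were examined in embryonic mouse brain with and without functional Plzf. The 8 genes were taken by their gene names on the array, together with all of their probes, and make up 25 of 56601 probes and 8 of 37071 gene names. The set was chosen by the measured ratio of *Nrcam* between the genotypes on these arrays, which was already known to be high, and the others were selected as its relatives. The ratios of the 8 genes are therefore given as a description without a test, and the question was whether the higher signal of *Nrcam* was shared by its relatives.

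RNA from wild type and luxoid embryos at E10.5 was hybridized together on 2 Agilent arrays, with wild type in Cy3 and luxoid in Cy5 on each. The luxoid mouse, *Plzf* lu/lu, is homozygous for a spontaneous mutation of *Plzf* (*Zbtb16*), which encodes a zinc finger transcription factor. The labels name C57BL/6 for the wild type channel and only luxoid for the other, so a difference of strain background cannot be told apart from the mutation. The labels call the tissue brain, and the methods call it forebrain and midbrain. The 2 arrays are labeled as biological replicates. How many embryos went into each is not given in the sources used here. Any p-value below tests the mean log2 ratio of a gene against no difference. Its variance comes from these 2 arrays and is moderated over all genes tested. The dyes were not exchanged, so that dye and genotype cannot be told apart for any probe.

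L1cam, Chl1, Nfasc and Nrcam form the L1 family, transmembrane proteins with immunoglobulin and fibronectin type III domains outside the cell and a short tail that binds ankyrin inside it. The contactins Cntn1 and Cntn2 have the same kinds of outer domains but are held in the membrane by a lipid (GPI) anchor. Both groups bind each other and guide growing axons, hold axons in bundles and organize contacts with glia. Alcam and Dscam are more distant members of the superfamily, and the brain at this age consists mostly of dividing progenitors with the earliest neurons among them.

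The probes behind *Nrcam* and *Alcam*, the 2 genes whose signals passed the filter described below, are shown because their values rest on these sequences. Each line gives the leading 30 of the 60 bases of a probe, 5′ to 3′ as deposited. No motif is marked, so no base is in capitals.
Nrcam A_55_P2003541: gcatacgtttttgttcagagtggggttttt
Nrcam A_55_P2731571: cctctactgtaaatctgtattcagagcata
Nrcam A_55_P2733437: gtacacacatagacatatgtgtctgtatat
Nrcam A_55_P2740717: aagcagcctatttctttgaaggtgatttca
Alcam A_55_P2914546: cttgttggcaactagatacaggtttctaac
Alcam A_51_P359272: agtaaactccctgaatgtctctgcgataag
The leading *Nrcam* probe, A_55_P2003541, lies at chr12:45699758-45699817 on the plus strand of mm9, and is the most 3′ of the 4. The other *Nrcam* probes lie 21.5, 52.1 and 53.9 kb upstream of it. The leading *Alcam* probe lies at chr16:52249270-52249329 on the minus strand, and the other measured *Alcam* probe spans a splice junction at chr16:52268908-52270785. Whether a probe lies in coding or untranslated sequence was not determined here.

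The probe with the highest mean signal stands for each gene below, and was its most 3′ probe for 7 of the 8 genes. The values are processed signals, that is, spot intensities after background subtraction and dye normalization within each array, in arbitrary units. Of the 25 probes, 13 were well above background in all 4 channels, 7 in some channels and 5 in none. At this leading probe, all 8 genes were flagged as well above background in every channel. The lowest signal-to-noise ratio over the channels was below 5 for *Dscam* (1.73), *Chl1* (4.24) and *Cntn2* (4.57), so RNA of these genes was measured near background. A stricter filter, a signal above 200 and a signal-to-noise ratio of at least 5 in all 4 channels, was passed by 10600 genes of the array. Of the 8 genes, *Nrcam* and *Alcam* passed it and the other 6 were too dim. Where an average over all probes of a gene is given below, it takes in every probe, also those not above background. Such a probe can move the average. A probe of *Alcam* that was not well above background in any channel had log2 ratios of −1.07 and −0.08.

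**Figure D1:**
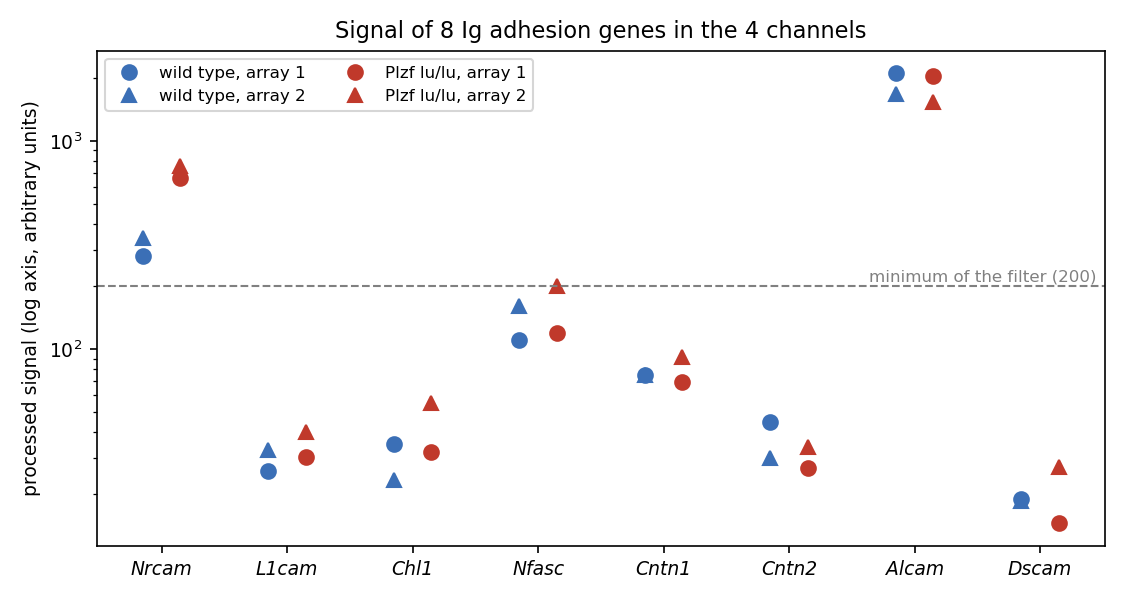
Processed signal of the leading probe of each gene (log scale) in wild type (blue) and *Plzf* lu/lu (red) on array 1 (circles) and array 2 (triangles), with a dashed line at 200, the minimum of the filter. *Nrcam* is the gene whose *Plzf* lu/lu signals, 660.3 and 759.5, both lie above both wild type signals, 280.6 and 342.0; in *Chl1*, *Dscam*, *Cntn1* and *Cntn2* *Plzf* lu/lu is below wild type on array 1 and above it on array 2.

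*Nrcam*, which encodes a cell adhesion molecule of axons and of the floor plate, was higher in *Plzf* lu/lu brain on both arrays. Its signal was 280.6 in wild type and 660.3 in *Plzf* lu/lu on array 1, and 342.0 and 759.5 on array 2. The genotypes did not overlap, as in 30.5% of the genes that passed the filter with *Plzf* lu/lu higher, and the difference was 2.35-fold on array 1 and 2.22-fold on array 2. On the log2 scale the ratios were 1.23 and 1.15, with a mean of 1.19 ± 0.06 (SD, n = 2 arrays). Among the 10600 genes that passed the filter, 2.58% were higher by more than 1.3-fold on both arrays and 0.736% were lower. *Nrcam* ranked 2 when these genes were ordered by the smaller of their ratios, a rank that its choice for this contrast already implies. In bulk RNA, more cells of a type and more RNA per cell cannot be told apart.

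The 3 other *Nrcam* probes were near background. The probe drawn from AK048567 had signals of 2.68 and 15.03 in wild type and *Plzf* lu/lu on array 1, and 17.1 and 19.7 on array 2, and its wild type channel was well above background on 1 array. The probe from AK087693 was not well above background in wild type on either array, with signals of 7.88 and 4.15. In *Plzf* lu/lu it was well above background on both, with 8.85 and 7.75. No fold is given, since on average over the arrays these signals did not exceed the lowest signal that was well above background in wild type. The probe from XM_006515969, across a splice junction, gave 2.71 and 3.31 in wild type against 7.55 and 6.55 in *Plzf* lu/lu, and was well above background only in *Plzf* lu/lu on 1 array. On array 1 the lowest signal well above background was 12.28 in wild type and 5.88 in *Plzf* lu/lu, so that limit was lower in *Plzf* lu/lu. On array 2 it was 6.85 and 6.71. In each of the 4 probes the *Plzf* lu/lu signal was the higher on each array, but 3 of the 4 lay near background. The level of *Nrcam* RNA therefore rests on the leading probe alone.

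In the other members of the L1 family the difference was small or not repeated. *L1cam*, the founding member of the family, which supports axon outgrowth and bundling, had signals of 25.9 in wild type and 30.2 in *Plzf* lu/lu on array 1, and 32.7 and 39.8 on array 2. Its log2 ratios were 0.22 and 0.28, a mean of 0.25 ± 0.05 (SD, n = 2), and the channels of the genotypes overlapped. The other *L1cam* probe that was well above background pointed the opposite way. There the signal went from 40.7 to 21.7 on array 1 and from 32.4 to 30.2 on array 2, log2 ratios of −0.90 and −0.10. The direction of *L1cam* was thus not settled, and its mean log2 ratio was −0.20 when all probes were averaged. After normexp correction it was 0.15 with centring over all probes and −0.44 with centring on the passing genes. These centrings differ by a shift common to all genes, which took the median of all passing genes from 0.587 to −0.0008. With centring on the passing genes, the other members too dim for the filter, *Chl1*, *Nfasc*, *Cntn1*, *Cntn2* and *Dscam*, also had means below 0. The value of −0.44 is therefore not read as specific to *L1cam*.

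*Nfasc*, which encodes neurofascin, a protein of the axon initial segment and the nodes of myelinated axons, had signals of 110.2 in wild type and 118.8 in *Plzf* lu/lu on array 1, and 160.5 and 200.9 on array 2. Both ratios were above 0, at 0.11 and 0.32 on the log2 scale, with a mean of 0.22 ± 0.15 (SD, n = 2). After normexp the mean was 0.53 with centring over all probes and −0.05 with centring on the passing genes. This is the same common shift as for *L1cam*. The other measured probes of *Nfasc* were lower in *Plzf* lu/lu on array 1. One of them, across a splice junction, had log2 ratios of −0.55 and −0.14, and the remaining one had −0.49 and 0.23.

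*Chl1*, the close homolog of L1, had the widest disagreement between arrays of the 8 genes. Its signal was 34.9 in wild type and 32.0 in *Plzf* lu/lu on array 1, and 23.5 and 55.0 on array 2. The log2 ratio was −0.13 on array 1 and 1.23 on array 2, as large as that of *Nrcam* on the other array, and the mean was 0.55 ± 0.96 (SD, n = 2). Of the 1829 genes within 0.25 of *Chl1* in log2 signal, 99.4% had arrays closer together than this. No second *Chl1* probe was well above background in any channel, so array 2 alone carries the higher value.

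Neither contactin was higher on both arrays. *Cntn1*, a neuronal adhesion molecule that binds neurofascin through its complex with Caspr, had signals of 75.3 in wild type and 69.4 in *Plzf* lu/lu on array 1, and 75.3 and 91.6 on array 2. Its log2 ratios were −0.12 and 0.28, with a mean of 0.08 ± 0.28 (SD, n = 2). Its more 3′ probe was dimmer and was lower in *Plzf* lu/lu on both arrays, with log2 ratios of −0.72 and −0.21.

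*Cntn2*, also called TAG-1, is known as a marker of early axons and, on commissural axons, as a binding partner of NrCAM. Its signal was 44.4 in wild type and 26.7 in *Plzf* lu/lu on array 1, and 29.8 and 34.0 on array 2. The log2 ratio was −0.73 on array 1 and 0.19 on array 2, with a mean of −0.27 ± 0.65 (SD, n = 2). The highest and the lowest of the 4 signals both came from array 1, and 97.8% of the 1810 genes of like signal had arrays closer together.

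*Alcam*, an adhesion molecule of progenitors, young axons and endothelium, was the other member that passed the filter, and its ratio was near 1. The leading probe read 2116 in wild type and 2059 in *Plzf* lu/lu on array 1, and 1682 and 1533 on array 2. The log2 ratios were −0.04 and −0.13, a mean of −0.09 ± 0.07 (SD, n = 2), and the mean was 0.50 only under a centring that moved the median of all passing genes to 0.587. The splice-spanning probe gave 204.8 and 198.1 on array 1 and 150.6 and 144.1 on array 2, log2 ratios of −0.05 and −0.06. Both probes of *Alcam* were therefore slightly lower in *Plzf* lu/lu on both arrays, by less than 1.3-fold, while the genotypes overlapped at each probe.

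*Dscam*, which takes part in self-avoidance of neurites and in netrin responses, had signals of 19.0 in wild type and 14.6 in *Plzf* lu/lu on array 1, and 18.6 and 27.2 on array 2. Its log2 ratios were −0.38 and 0.55, a mean of 0.08 ± 0.66 (SD, n = 2). The remaining probe named *Dscam* lies on the strand opposite to that of the leading probe and was not well above background in every channel. It is not read as a measure of *Dscam* RNA.

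**Figure D2:**
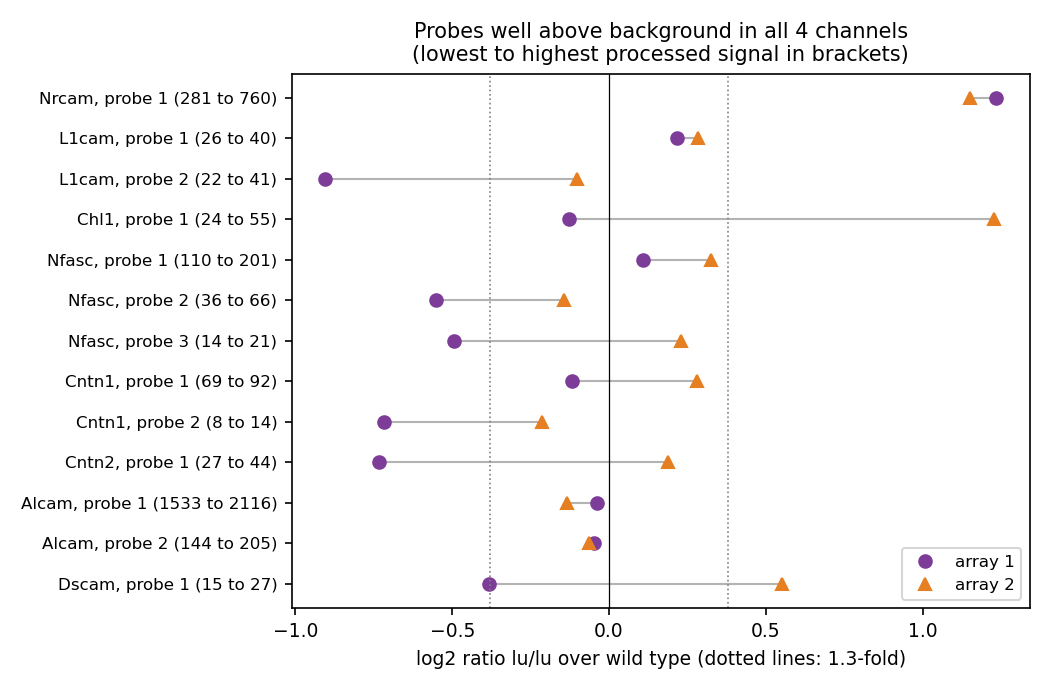
Log2 ratio of *Plzf* lu/lu over wild type on array 1 (circles) and array 2 (triangles) for the 13 probes that were well above background in all 4 channels, with the lowest and highest processed signal of each probe in brackets and dotted lines at 1.3-fold. 3 probes were higher on both arrays, 5 were lower on both and 5 differed in sign between the arrays; the *Nrcam* probe is beyond 1.3-fold on both arrays, at 1.23 and 1.15.

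Taken over the 8 genes, 1 was higher by more than 1.3-fold on both arrays and 0 were lower by that much, where among the 23281 genes well above background in every channel 2.52% were higher and 2.07% were lower. In 1 of the 8 both *Plzf* lu/lu channels exceeded both wild type channels, which held for 24% of those 23281 genes, and in 0 of the 8 both were below, which held for 22.4%. These counts contain *Nrcam*, which was chosen for this contrast, and nothing is read from them. Ordered by mean log2 ratio the genes ran from *Nrcam* (1.19) through *Chl1* (0.55), *L1cam* (0.25), *Nfasc* (0.22), *Dscam* (0.08), *Cntn1* (0.08) and *Alcam* (−0.09) to *Cntn2* (−0.27). Every neighbouring pair in this order, *Nrcam* and *Chl1* included, lay closer together than the SD of at least 1 gene of the pair. On both arrays *Nrcam* was above either ratio of *L1cam*, *Nfasc*, *Dscam*, *Cntn1*, *Alcam* and *Cntn2*. The median over the 8 genes, *Nrcam* included, was −0.08 on array 1 and 0.30 on array 2. It was 0.02 and −0.0047 over all genes that passed the filter, which 6 of the 8 did not. Over genes well above background, the array 1 median was −0.17 below a signal of 20, 0.01 from 20 to 50 and 0.003 from 50 to 200. On array 2 it was 0.004, 0.001 and 0.004 in these ranges.

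The arrays differed in sign for *Chl1*, *Dscam*, *Cntn1* and *Cntn2*, each lower in *Plzf* lu/lu on array 1 and higher on array 2. Such a change of sign was found in 31.3% of the 1790 genes with a signal below 20, in 20% of the 4795 genes from 20 to 50 and in 17.8% of the 5664 genes from 50 to 200, the ranges of signal in which these 4 genes lie. The gap between arrays for *Dscam* exceeded that of 95.9% of 1725 genes of like signal, and that of *Cntn1* exceeded 85.6% of 1473. *Nfasc* (62.1%), *Alcam* (43.2%), *Nrcam* (32.4%) and *L1cam* (14.9%) had smaller gaps by this measure.

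**Figure D3:**
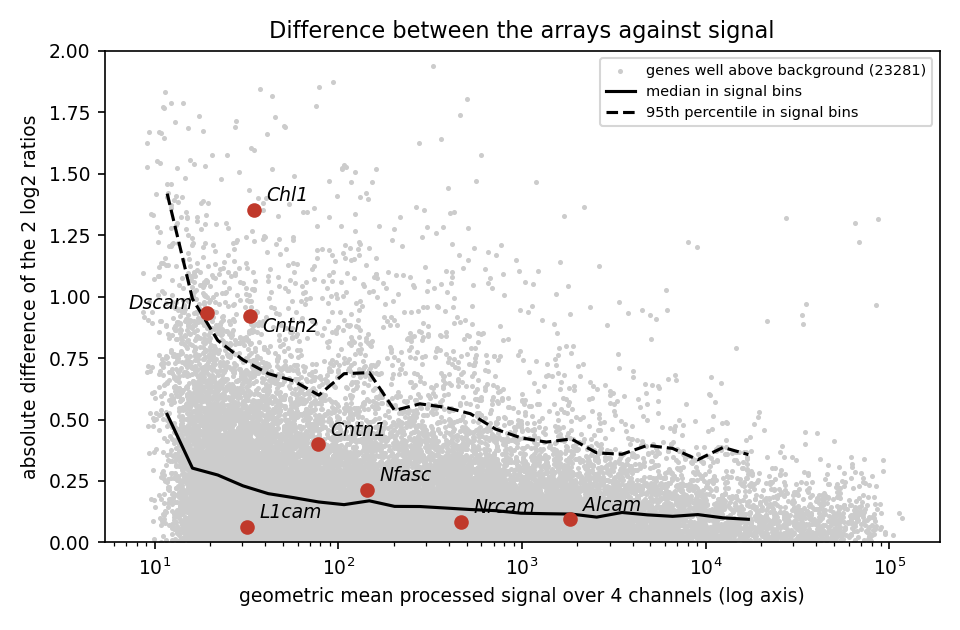
Absolute difference between the log2 ratios of the arrays against the geometric mean processed signal over the 4 channels (log scale) for all genes well above background, with the 8 genes in red and lines at the median and 95th percentile in bins of signal; 18 genes with a difference above 2 lie outside the plot. *Chl1* (1.35), *Dscam* (0.93) and *Cntn2* (0.92) lie high in the cloud for their signal, whereas *Nrcam* (0.08) and *L1cam* (0.06) lie below the median and *Alcam* (0.10) lies close to it.

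Markers of young neurons also had a higher median ratio on array 2 than on array 1. All 18 such markers exceeded background clearly in every channel and 15 passed the filter, with a median log2 ratio of 0.14 on array 1 and 0.60 on array 2. Their summed signal was 17468 in wild type and 18789 in *Plzf* lu/lu on array 1, and 15741 and 23994 on array 2. Of the 15, *Stmn3* and *Elavl4*, genes of differentiating neurons, were beyond 1.3-fold higher on both arrays, as were 2.58% of all genes tested. The log2 ratios were 0.40 and 1.12 for *Stmn3* and 0.40 and 0.75 for *Elavl4*, but neither passed limma's test (Benjamini-Hochberg adjusted p of 0.078 and 0.058). With all probes averaged, the array 1 ratios fell within 1.3-fold, at 0.24 for *Stmn3* and 0.03 for *Elavl4*, and *Elavl4* was beyond 1.3-fold on both arrays in 3 of 6 alternatives. The part of neuron content in the values of *Chl1*, *Dscam*, *Cntn1* and *Cntn2* was not tested.

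Floor plate markers were measured because NrCAM is known there. All 12 were well above background in every channel and 7 passed, with a median log2 ratio of 0.21 on array 1 and 0.69 on array 2, and their summed signal was 3706 and 3306 in wild type against 4633 and 5409 in *Plzf* lu/lu. *Shh*, the ventral signaling molecule, rose in *Plzf* lu/lu brain from 535.8 to 1120 on array 1 and from 676.7 to 1385 on array 2 (adjusted p = 0.0465, limma), a call lost with loess or the deposited log2 table, where limma called 0 genes higher. *Foxa2*, a floor plate transcription factor, had log2 ratios of 0.72 and 1.22 (adjusted p = 0.0508, limma). These 2 of the 7 were beyond 1.3-fold higher on both arrays and 0 were lower, against 2.58% and 0.736% of all genes tested. Of the 7, 4 were above 0 on both arrays, 1 was below 0 on both and 2 were below 0 on array 1 and above it on array 2. The sign was the same on both arrays in 71.1% of genes with a signal from 200 to 1000 and in 74.4% of brighter genes. The part of floor plate content in the value of *Nrcam* was not tested.

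Among the genes that passed the filter, *Shh* was also the gene whose pair of log2 ratios, 1.06 and 1.03, lay nearest to that of *Nrcam*, at a distance of 0.208 over the 2 arrays. Also near was *Islr2*, a neuronal membrane protein with an immunoglobulin domain, with 1.07 and 1.45 (distance 0.343). *Etv1*, an ETS transcription factor, had 1.09 and 0.80 (distance 0.376), or 0.10 and 0.71 with all probes averaged, and *Irs4*, an insulin receptor substrate, had 0.90 and 0.78 (distance 0.498). The search covered genes that passed the filter, so of the relatives of *Nrcam* only *Alcam* entered it. With 2 arrays, likeness of this kind is a description of the 2 ratios only.

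**Figure D4:**
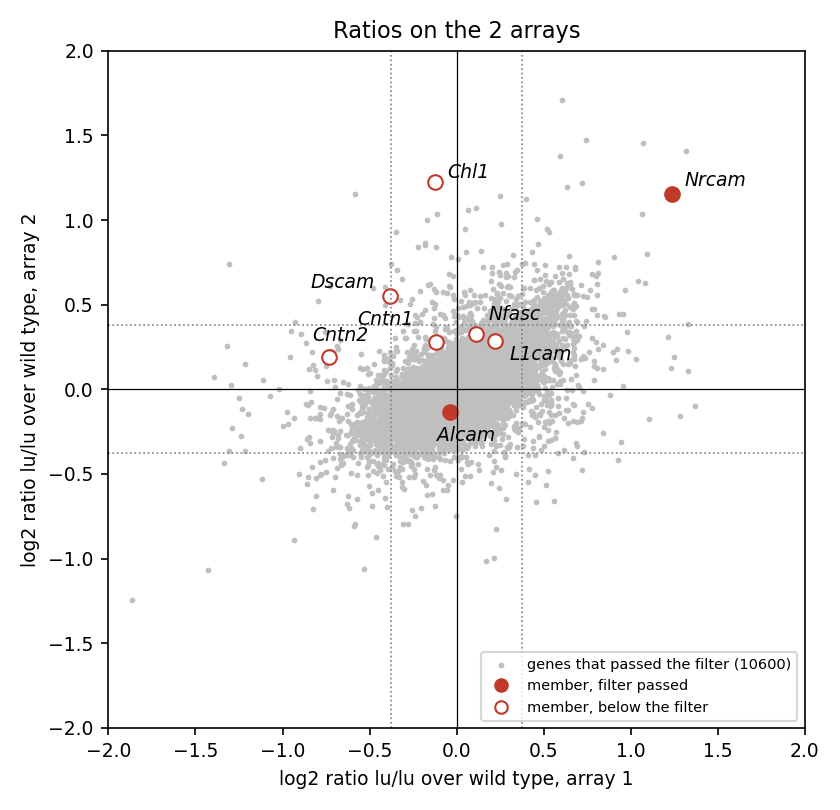
Log2 ratio of *Plzf* lu/lu over wild type on array 1 against array 2 for genes that passed the filter (grey; 3 lie outside the plot), with the 8 genes in red (open where below the filter) and dotted lines at 1.3-fold. *Nrcam* lies at 1.23 and 1.15, *Alcam* close to the origin, and *Chl1* high on array 2 only.

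Among 30 other adhesion genes of the immunoglobulin superfamily, 25 were well above background in every channel and 11 passed the filter. Of these 11, 3 were beyond 1.3-fold higher on both arrays and 0 were lower, against 2.58% and 0.736% of all genes tested, and their median log2 ratio was 0.07, beside 0.0066 over all genes tested. By limma 0 of the 11 had an adjusted p under 0.05 in either direction, and at an unadjusted p under 0.05 there were 4 higher and 1 lower. Over all 10600 genes, limma called 0.0283% higher and 0% lower after adjustment, and 15.7% and 12.1% without it.

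The 3 genes were *Igsf9*, *Mcam* and *Ncam1*. *Igsf9*, a dendrite-associated protein of the Dasm1 and Turtle group, went from 3265 to 4915 on array 1 and from 2884 to 4286 on array 2, log2 ratios of 0.59 and 0.57 (adjusted p = 0.0508, limma). *Mcam*, an adhesion molecule of vessels, muscle and some neurons, went from 5466 to 8153 and from 4866 to 7101, log2 ratios of 0.58 and 0.55 (adjusted p = 0.0508, limma). Their arrays were closer together than those of *Nrcam*, and their differences were smaller. With all probes averaged, *Igsf9* was within 1.3-fold, at 0.27 and 0.29. The *Mcam* probe, at chr9:43950664-43950723, lies on the same chromosome as the probe of the mutated gene *Zbtb16*, at chr9:48462419-48462478.

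*Ncam1*, the neural cell adhesion molecule that carries polysialic acid, lies on chromosome 9, 0.848 Mb from the *Zbtb16* probe. Its signal was 308.5 in wild type and 420.6 in *Plzf* lu/lu on array 1, and 387.6 and 607.4 on array 2 (adjusted p = 0.0516, limma). The log2 ratios of 0.45 and 0.65 turned to −0.29 and −0.08 when all *Ncam1* probes were averaged, whatever their signal. *Zbtb16* itself, the mutated gene, was 433.2 in wild type and 171.8 in *Plzf* lu/lu on array 1, and 546.4 and 210.9 on array 2, log2 ratios of −1.33 and −1.37. It did not pass the filter because its *Plzf* lu/lu signal on array 1 was below 200, and it was therefore not tested. The other passing genes of the adhesion list on chromosome 9 were not beyond 1.3-fold on both arrays. *Cadm1*, at chr9:47658965-47659024, had log2 ratios of 0.11 and 0.03. *Pvrl1*, at chr9:43615340-43615399, had −0.14 and −0.12, and *Nptn*, at chr9:58500580-58500639, had 0.50 and 0.08. The part of position on chromosome 9 was not tested.

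Among the contactins outside the 8 genes, none passed the filter. *Cntn3* had log2 ratios of 0.67 and 0.31 and *Cntn4* had 0.34 and 0.35, both dim but well above background in all channels. *Cntn6*, also well above background throughout, had −0.25 and 0.02. *Cntn5* was not well above background in every channel. *Dscaml1*, the closest relative of *Dscam*, was not well above background in any channel. Of the brighter genes of the list that were not beyond 1.3-fold, the nectin gene *Pvrl2* had log2 ratios of 0.15 and −0.23 (adjusted p = 0.820, limma). *Bsg*, encoding basigin, which red cells also carry, had −0.90 and −0.35 (adjusted p = 0.0770, limma).

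Partners through which the L1 family and the contactins act were also examined, including ankyrins, spectrins, neuropilins, Caspr proteins, sheddases and matrix ligands. Of 30 such genes, 26 exceeded background clearly in all 4 channels and 21 passed the filter. Of these 21, 1 was beyond 1.3-fold higher on both arrays and 0 were lower, again against 2.58% and 0.736% of all genes tested, the median log2 ratio being 0.02. By limma 0 of the 21 had an adjusted p under 0.05, and 5 were higher and 2 lower at an unadjusted p under 0.05, as were 15.7% and 12.1% of all genes tested. The 1 gene was *Nrp2*, a semaphorin receptor that forms complexes with NrCAM, which went from 6901 to 10131 on array 1 and from 6630 to 9852 on array 2. Its log2 ratios were 0.55 and 0.57 (adjusted p = 0.0508, limma), or 0.16 and 0.28 with all probes averaged.

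*Ank2* and *Ank3*, the ankyrins that bind the tail of the L1 family, had log2 ratios of 0.49 and 0.29 (*Ank2*, adjusted p = 0.0736, limma) and of 0.33 and −0.02 (*Ank3*, adjusted p = 0.365, limma). The spectrin genes *Sptbn1* and *Sptan1* had 0.15 and −0.20, and −0.11 and −0.27, and the clathrin adaptor gene *Ap2m1* had 0.15 and 0.25, none past the test (adjusted p of 0.907, 0.193 and 0.170, limma). *Ank2* and *Ank3* were chosen for their role after their values were seen. *Nrp1*, the relative of *Nrp2*, was likewise added, with −0.22 and −0.07 (adjusted p = 0.297, limma).

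**Figure D5:**
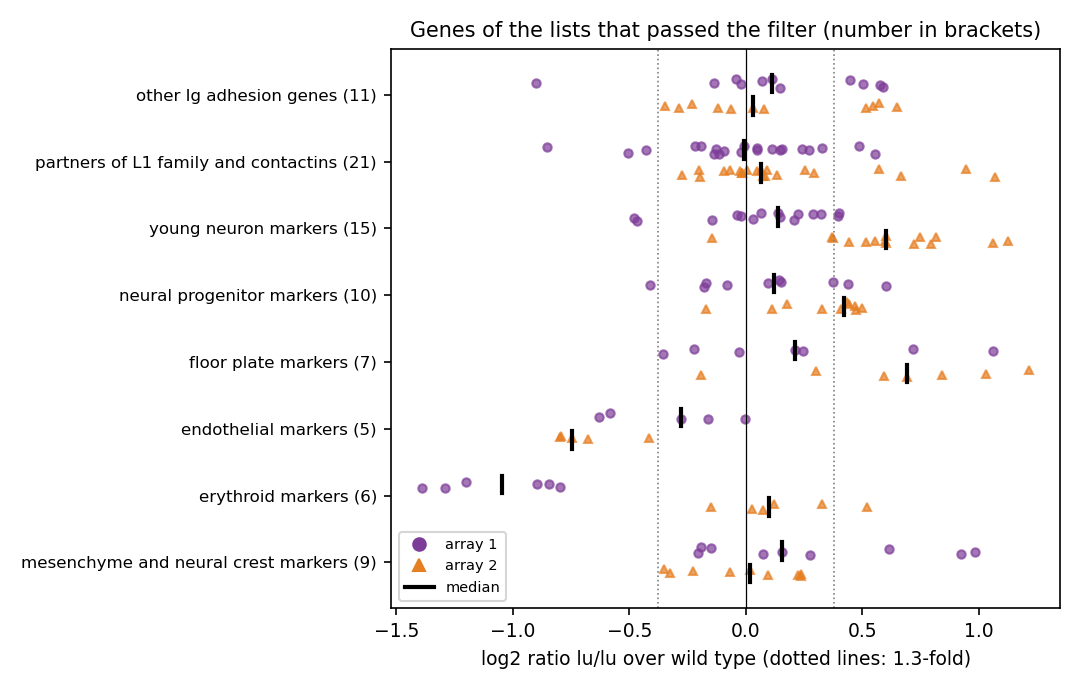
Log2 ratio of *Plzf* lu/lu over wild type on array 1 (circles) and array 2 (triangles) for genes of each list that passed the filter, with the number of genes in brackets, black bars at the medians and dotted lines at 1.3-fold. The medians of the other adhesion genes (0.11 and 0.03) and of the partners (−0.01 and 0.07) lie near 0, while those of young neuron markers (0.14 and 0.60) and floor plate markers (0.21 and 0.69) are higher on array 2.

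Other cell types in the dissected tissue also differed between channels. Endothelial markers had a median log2 ratio of −0.28 on array 1 and −0.75 on array 2 over 5 passing genes. *Emcn* (−0.63 and −0.68) and *Plvap* (−0.58 and −0.79), both of vessel walls, were beyond 1.3-fold lower on both arrays, as were 0.736% of all genes tested. Each had an adjusted p of 0.0508 by limma. However, *Emcn* was 0.02 and −0.19 and *Plvap* −0.01 and −0.32 under the centring that moved the median of all passing genes to 0.587. Erythroid markers had a median of −1.05 on array 1 and 0.10 on array 2 over 6 passing genes, and their summed signal was 468556 in wild type and 250881 in *Plzf* lu/lu on array 1, against 194587 and 237653 on array 2. The red cell ankyrin gene *Ank1*, with log2 ratios of −0.81 and 0.38, and *Bsg* followed the direction of these markers on array 1. On array 2 *Ank1* was above 0, as was the erythroid median, whereas *Bsg* was below 0, at −0.35. The part of blood content was not tested. Progenitor markers had medians of 0.12 and 0.42 over 10 passing genes. Of these, *Cdh2* (0.60 and 0.44) and *Sox2* (0.44 and 0.47) were beyond 1.3-fold higher on both arrays (adjusted p of 0.0516 and 0.0540, limma), as were 2.58% of all genes tested. With all probes averaged, however, *Cdh2* was −0.04 and 0.16. Mesenchyme and neural crest markers had medians of 0.15 and 0.02, with 0 of 9 passing genes beyond 1.3-fold on both arrays.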

How the data were processed

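Total RNA from E10.5 brain was labeled, hybridized and scanned by the authors, who deposited Feature Extraction 10.7.3.1 output with probe positions in mm9. The deposited processed intensity is background-subtracted and dye-normalized within each array. A deposited log2 value table was within 0.005 of the log2 ratio of the processed intensities at spots well above background. The arrays shared 1 slide and 1 scan. Each array held 59305 gene spots, 137 and 126 of which were left out as outliers, and 0 were saturated. Between 36936 and 44318 spots per channel were well above background, and the number of arrays limits the precision.

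Replicate spots were averaged as log2 values, and the probe of highest mean signal stood for its gene. The cutoffs of the filter (processed signal above 200, signal-to-noise ratio of at least 5) and of 1.3-fold follow the methods of the study, and requiring them in all 4 channels and on both arrays was set here. Log2 ratios of *Plzf* lu/lu over wild type were fitted with limma 3.58.1 in R 4.3.3 (intercept, eBayes) with Benjamini-Hochberg adjustment over 10600 genes, after testing on simulated data. This test was used for genes outside the family only. Figures were drawn with matplotlib 3.10.9.

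The members and lists were chosen with earlier results of these data known. Named genes are the 8 members, list genes beyond 1.3-fold on both arrays, the 4 brightest passing genes of the adhesion and partner lists, the 5 passing genes nearest to *Nrcam*, *Zbtb16* and *Ncam1*. A gene selected by this rule is not reported here. *Ank1*, *Ank2*, *Ank3*, *Nrp1*, *Cntn3*, *Cntn4*, *Cntn5*, *Cntn6*, *Dscaml1*, *Cadm1*, *Pvrl1* and *Nptn* were added after their values were seen. Alternatives were normexp background correction (offset 50) with loess or with median centring over all probes, the deposited log2 table, other filters, the mean over probes, removal of the GC trend (lowess, span 0.67), 1.5-fold, eBayes with trend, unpaired channels and either array by itself. A further alternative, normexp centred on passing genes, was chosen after seeing the data.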

Additional observations from a re-analysis of the deposited data

How the results depend on the processing

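The mean log2 ratio of *Nrcam* stayed above 0 in 8 of 8 alternatives and beyond 1.3-fold on both arrays in 6 of the 6 that use both arrays. It was 1.11 with the GC trend removed, 1.08 as the mean over probes, 1.63 after normexp with centring over all probes and 1.05 with centring on the passing genes. The mean over probes takes in the *Nrcam* probes near background, so it is no firmer than the leading probe alone. All of these settings re-use the 2 arrays on which *Nrcam* was chosen for its ratio, so they give no independent support. *Alcam* was −0.24 as the mean over probes, which includes a probe with no channel well above background. It was 0.50 with centring over all probes, which moved the median of all passing genes from 0.0066 to 0.587. The arrays differed in sign in 6 of 6 such alternatives for *Chl1*, 5 for *Dscam*, 4 for *Cntn2*, 3 for *Cntn1*, 2 for *Nfasc*, 1 for *L1cam* and 0 for *Nrcam* and *Alcam*.

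Of the 274 genes higher and 78 lower by 1.3-fold on both arrays, the counts were 142 and 112 as the mean over probes, 1696 and 2178 without a filter, 587 and 482 with all genes well above background, 7337 and 4 with centring over all probes, 456 and 120 with centring on the passing genes, and 41 and 12 at 1.5-fold. With each array alone, the counts ran from 477 to 875 higher and from 208 to 592 lower. By limma, 3 genes were higher and 0 lower. Higher calls numbered 1 with the GC trend removed, 1 with the filter in 1 channel per array, 0 with the deposited table, the mean over probes, no filter, loess or all genes well above background, 293 with trend, 9881 with centring over all probes and 983 with centring on the passing genes. Lower calls numbered 100, 5 and 560 in the last 3 settings and 1 with the filter in 1 channel. Without the pairing of channels by array (no replicate block), limma called 0 genes.

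Of the other adhesion genes, 3 higher became 0 at 1.5-fold, 5 without a filter and 6 with centring over all probes. With each array alone 4 were higher, and from 0 to 1 lower. Of the partners, 1 higher became 0 at 1.5-fold and as the mean over probes, 13 with centring over all probes and 2 to 4 with each array alone, and 0 lower became 1 without a filter and from 0 to 3 with each array alone. The 2 arrays and the dim signals of 6 of the 8 genes limit these values, and the causes of the shifts were not tested beyond the settings named.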
